A study of Mus musculus with 10 samples.

Results

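The imprinted growth genes described here are H19, Igf2, Igf2r, Grb10, Cdkn1c, Plagl1, Peg3, Mest, Dlk1 and Meg3. They were taken by gene symbol from the deposited table, which held all 10 of them among 23086 genes, and all 10 were among the 16517 genes tested (mean of at least 10 normalized counts over the libraries). RNA was sequenced from mouse urothelial tumours of BBN963 cells, a bladder carcinoma line, with 5 libraries from ATM-WT and 5 from ATM-KO tumours. The tumours grew in mice and were taken at 500 mm3. The labels give no treatment, mouse strain, age or sex, and do not say how the knockout was made, how many clones were used or whether each tumour came from a separate animal. The p-values therefore measure the spread between these libraries, which may be partly technical.

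An imprinted gene is transcribed mainly from the allele inherited from the mother or mainly from that inherited from the father, because DNA methylation laid down in egg or sperm marks the copies differently. Many paternally expressed imprinted genes promote fetal growth and many maternally expressed ones restrain it, and most are turned down in tissues after birth. Several are re-expressed or lost in cancers. By textbook knowledge, 5 of the 10 genes are expressed from the maternal allele in most mouse tissues (H19, Igf2r, Grb10, Cdkn1c and Meg3) and 5 from the paternal allele (Igf2, Plagl1, Peg3, Mest and Dlk1). The table sums both alleles of a gene, so which allele was transcribed in these tumours was not measured.

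Library totals were 20228200 to 22302200 normalized counts. The steps between low values gave a rough depth of 20.6 to 28.3 M reads, except for ATM-WT library A2 at 8.81 M. ATM-WT libraries A2 and A4 and ATM-KO library A12 listed the most genes at 0 in their genotype (4824, 4266 and 3602, against 2225 to 2641 in the others). Atm messenger RNA, whose lesion the labels do not describe, did not separate the genotypes, at 311 to 768 in ATM-WT and 312 to 659 in ATM-KO. The urothelial label was checked with 10 epithelial markers: all 10 fell, and their summed level was 75887 to 228051 in ATM-WT and 2176 to 3799 in ATM-KO. All 5 ATM-KO libraries listed the urothelial marker Upk3a at 0. Of 12 fibroblast markers 10 fell and 1 rose, and their sum was 189651 to 646374 in ATM-WT and 54711 to 135900 in ATM-KO. In RNA from whole tumours, fewer cells of a type and less RNA per cell cannot be told apart.

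In ATM-KO tumours 8 of the 10 imprinted growth genes fell, 0 rose, and Peg3 and Dlk1 did not pass the test. Genes that fell made up 24.3% of all genes tested, genes that rose 22.1%. The falls were of unequal size. H19, Igf2, Plagl1 and Cdkn1c lost most of their RNA, keeping 2.96% to 8.68% of the ATM-WT mean, whereas Meg3, Igf2r, Mest and Grb10 kept 37.4% to 53.1%. For 6 genes (H19, Igf2, Igf2r, Cdkn1c, Plagl1 and Meg3) every ATM-KO library lay below every ATM-WT library, a pattern found for 18.2% of all genes tested. An exact two-sided permutation test gave p = 0.0079 for each of these 6, the smallest that 5 against 5 libraries allow. Genotypes that do not overlap always give this value, so it adds nothing to the lack of overlap. The count of genes that fell was 6 without library A1 or A12 and 9 without A2. The mean log2 value was lower in ATM-KO for all 10, against 49.7% of all genes, and the median log2 fold change was -1.69, against 0.00467 for all genes. Dlk1 passed the filter only through its ATM-WT mean (18.6, against 1.68 in ATM-KO). Its direction was thus close to fixed by the filter and adds little to this count. All 5 maternally expressed genes and 3 of the 5 paternally expressed genes fell, with medians of -1.48 and -1.89. The second of these medians is the value of Dlk1, which was near the floor of the table and did not pass. The median of all 10 lies between Dlk1 and Meg3, so it also hangs on Dlk1. Whether the kinds differ was not tested. Levels are normalized counts given as mean ± SD (n = 5 libraries), and log2 fold changes are the ATM-KO mean less the ATM-WT mean of log2(value + 1), with ± SE. This scale understates the change of low genes. Adjusted p-values come from limma with Benjamini-Hochberg adjustment over all genes tested.

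**Figure D1:**
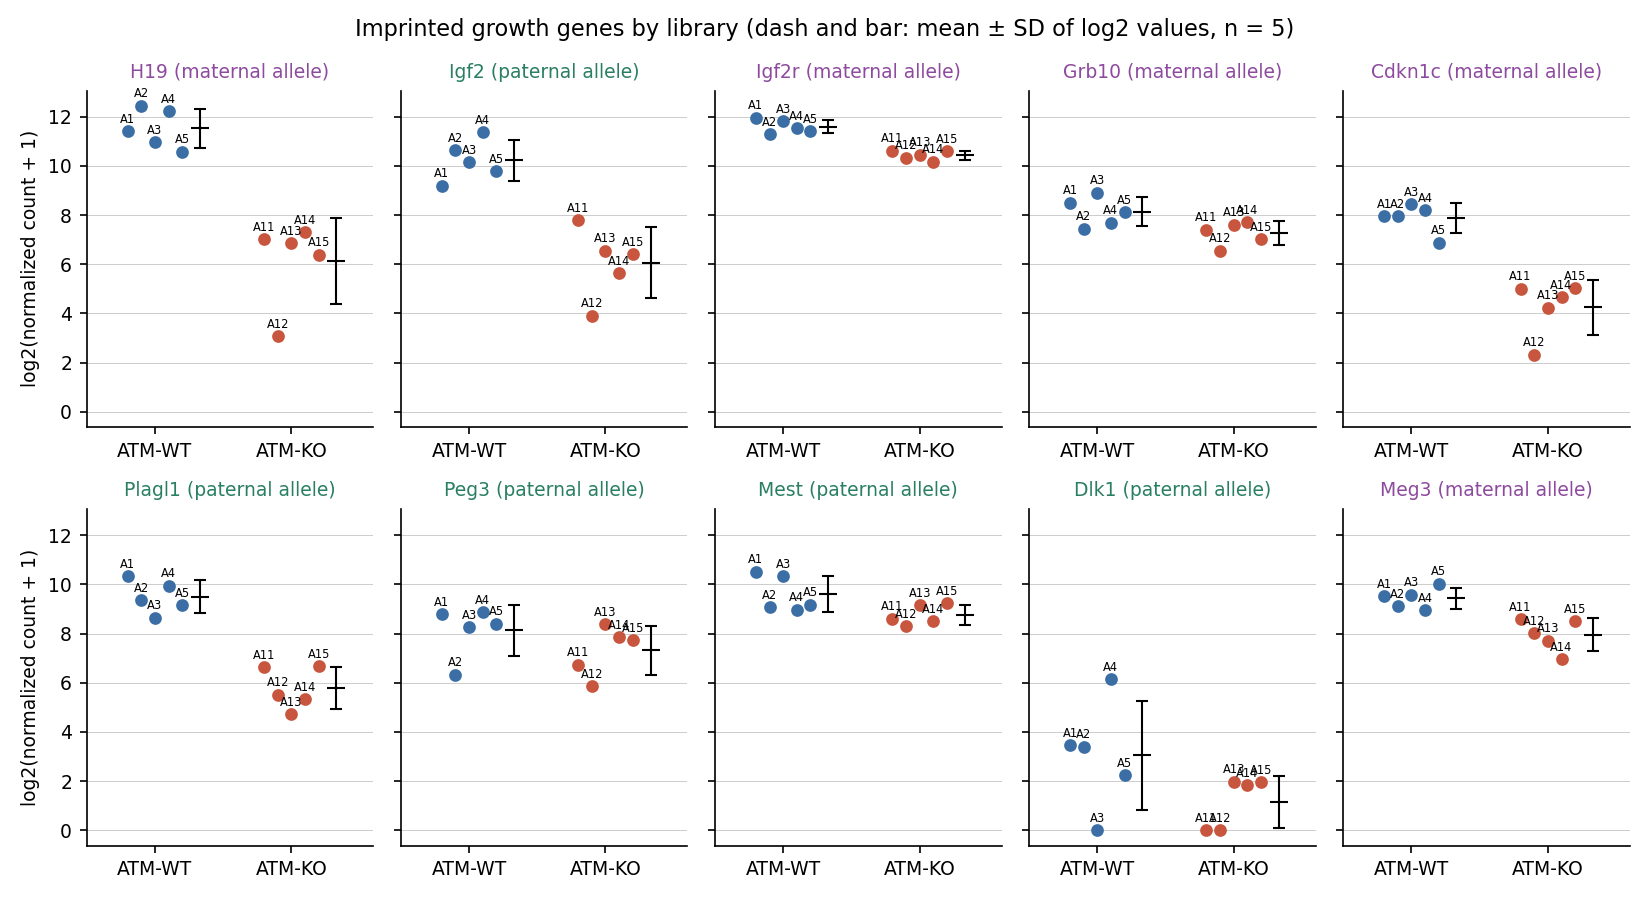
Each panel shows a gene, with log2(normalized count + 1) on the vertical axis and libraries as labelled points (blue ATM-WT, red ATM-KO); the dash and bar are the mean ± SD of the log2 values. The genotypes do not overlap for H19, Igf2, Igf2r, Cdkn1c, Plagl1 and Meg3, and library A12 is the lowest ATM-KO library for 6 of the 10 genes.

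H19 and Igf2 lie in the same imprinted domain on chromosome 7 and use the same enhancers from opposite parental alleles. H19 is a long noncoding RNA that restrains growth and carries a microRNA, and Igf2 encodes insulin-like growth factor 2, the main fetal growth factor of its family. In ATM-WT libraries A1 to A5, H19 (ENSMUSG00000000031.16) stood at 2739, 5553, 1995, 4808 and 1519 normalized counts. In ATM-KO libraries A11 to A15 it stood at 129, 7.39, 115, 158 and 83.1. The lowest ATM-WT library was thus far above the highest ATM-KO library, and A12 was well below the other ATM-KO libraries. The means were 3323 ± 1771 and 98.3 ± 57.5, 33.8-fold apart, and H19 changed by -5.40 ± 0.70 (limma adjusted p = 4.97e-05). Only 1.96% of all genes tested had a larger fall.

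Igf2 (ENSMUSG00000048583.16) stood at 586, 1583, 1134, 2652 and 875 in ATM-WT libraries A1 to A5. It stood at 222, 14.0, 92.7, 48.5 and 84.2 in ATM-KO libraries A11 to A15. The genotypes again did not overlap, A4 was the highest and A12 the lowest of all libraries. The mean fell from 1366 ± 807 to 92.4 ± 79.1 (-4.16 ± 0.61, limma adjusted p = 1.26e-04). In the GENCODE M21 annotation 68.5% of the exon bases of Igf2 are shared with the read-through gene Gm49394, so reads of these genes can be split between them. Gm49394 was listed at 0 in 7 of the 10 libraries and reached at most 39.3. The antisense gene Igf2os, which shares 98 exon bases with Igf2, reached at most 29.9, in library A4, where Igf2 was also highest.

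H19 and Igf2 were not shown to fall by different amounts. The difference of their log2 values was 1.30 ± 0.67 (SD, n = 5) in ATM-WT and 0.07 ± 1.03 in ATM-KO, a shift of -1.23 (exact two-sided permutation test, p = 0.071, adjusted p = 0.11 over the 3 pairs compared). ATM-KO library A14, at 1.68, lay among the ATM-WT libraries, which spanned 0.79 to 2.22. The other ATM-KO libraries lay between -0.84 and 0.31. Without A14 the shift was -1.63 (exact permutation, adjusted p = 0.024).

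**Figure D2:**
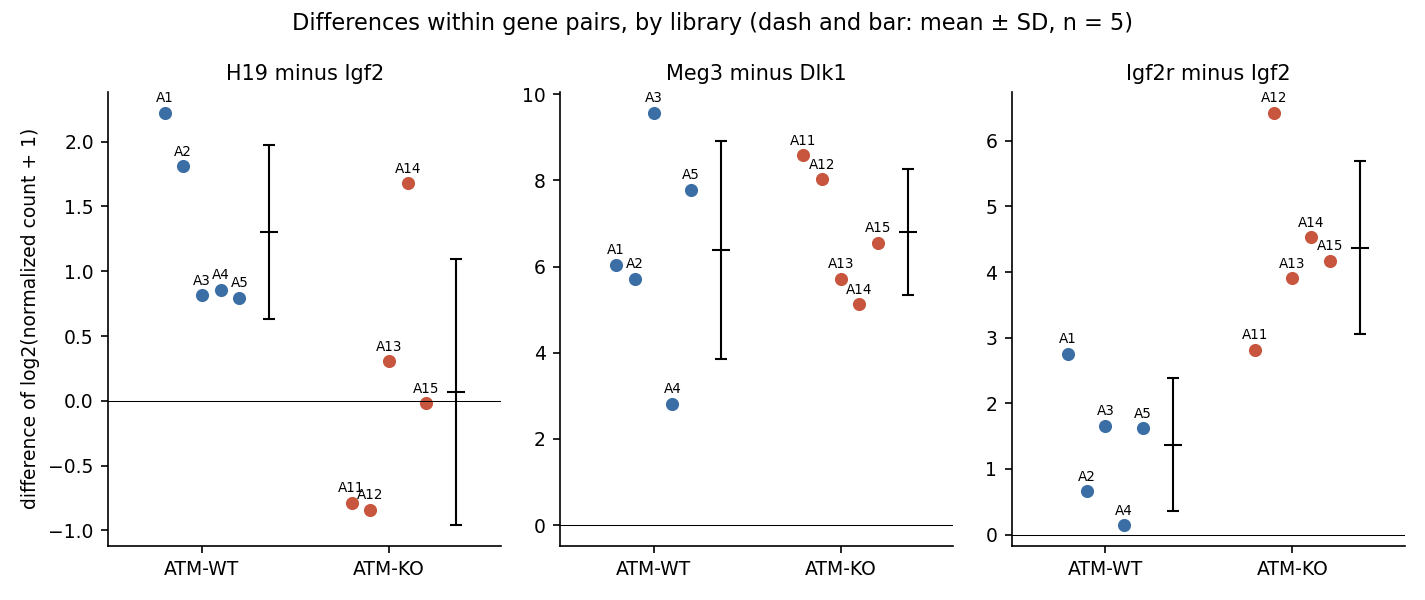
Points are libraries and the vertical axis is the difference between the log2(normalized count + 1) values of the genes named above each panel; the dash and bar are the mean ± SD (n = 5). The Igf2r minus Igf2 difference is higher in every ATM-KO library (2.82 to 6.43) than in any ATM-WT library (0.15 to 2.76), while the Meg3 minus Dlk1 difference overlaps.

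By RefSeq and GENCODE positions on GRCm38, microRNA hairpins lie within 4 of these genes. The miR-675 hairpin lies within an exon of H19, that of miR-770 within an exon of Meg3, and those of miR-483 and miR-335 within Igf2 and Mest. The mature sequences from H19, Igf2 and Mest are printed because these host transcripts are among those that fell. The microRNAs themselves were not measured. Capitals mark the seed, bases 2 to 8, and the 6 sequences have 6 different seeds.
mmu-miR-675-5p, from H19: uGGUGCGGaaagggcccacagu
mmu-miR-675-3p, from H19: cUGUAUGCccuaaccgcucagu
mmu-miR-483-5p, from Igf2: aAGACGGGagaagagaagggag
mmu-miR-483-3p, from Igf2: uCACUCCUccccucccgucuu
mmu-miR-335-5p, from Mest: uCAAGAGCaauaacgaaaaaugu
mmu-miR-335-3p, from Mest: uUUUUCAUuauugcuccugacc

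Igf2r and Grb10 act against insulin-like growth factor signalling. Igf2r encodes the receptor that carries IGF2 to lysosomes for breakdown, and Grb10 an adaptor that dampens signalling from the insulin and IGF1 receptors. Igf2r (ENSMUSG00000023830.14, chromosome 17) stood at 3960.3, 2510.0, 3589, 2933 and 2701 in the ATM-WT libraries and at 1575, 1291, 1406, 1146 and 1538 in the ATM-KO libraries. It was the steadiest of the 10 genes within each genotype, with a 1.58-fold range in ATM-WT and a 1.37-fold range in ATM-KO. The mean fell from 3139 ± 614 to 1391 ± 177 (-1.16 ± 0.14, limma adjusted p = 2.78e-05). Airn, the paternally expressed antisense transcript of this domain in mice, was 223 ± 45.1 and 185 ± 35.8 (-0.27 ± 0.20, limma adjusted p = 0.29).

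Igf2r fell less than its ligand gene Igf2. The log2 difference Igf2r minus Igf2 was 1.37 ± 1.01 in ATM-WT and 4.37 ± 1.32 in ATM-KO, a shift of 3.00 (exact two-sided permutation p = 0.0079, the smallest the design allows, adjusted p = 0.024 over the 3 pairs). All 5 ATM-KO libraries were above all 5 ATM-WT libraries. The shift was 2.36 without ATM-WT libraries A2 and A4 (exact permutation, adjusted p = 0.11) and 1.85 without A2, A4 and A12 (exact permutation, adjusted p = 0.17). With so few libraries a pair that alone reached the smallest exact p would have adjusted p = 0.054 and 0.086, so passing was out of reach for it. The Igf2r minus Igf2 pair did not reach that smallest value, although its genotypes still did not overlap. In groups of unequal size, lack of overlap need not give the smallest p. The exact permutation p of this pair was 0.036 and 0.057, against the smallest possible of 0.018 and 0.029. Per kilobase of exon, mean Igf2r was 353 and mean Igf2 260.3 normalized counts in ATM-WT, and 157 and 17.6 in ATM-KO.

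Grb10 (ENSMUSG00000020176.17, chromosome 11) stood at 361, 174, 481, 206 and 274 in ATM-WT and at 169, 93.2, 193, 210.1 and 128 in ATM-KO. The genotypes overlapped, since ATM-WT library A2 was below A13 and A14 and library A4 below A14. The mean went from 299 ± 125 to 159 ± 48.0 (-0.87 ± 0.31, limma adjusted p = 0.033). The call was lost without A1 (-0.78), A3 (-0.68), A5 (-0.88), A12 (-0.70) or A15 (-0.81).

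Other genes of the insulin-like growth factor pathway fell too. In a list of 18 such genes 0 rose and 10 fell of 15 tested, with a median of -1.13 (0.00467 for all genes). The share that fell was 66.7%, against 24.3% of all genes tested, and none rose against 22.1%. The ligand gene Igf1 fell from 3103 ± 1865 to 700.1 ± 131 (-1.91 ± 0.39, limma adjusted p = 0.0014). Its receptor gene Igf1r was 1003 ± 196 and 1195 ± 141 (0.27 ± 0.14, limma adjusted p = 0.14, 95% interval -0.04 to 0.57), and without library A5 it was 0.36 higher (limma adjusted p = 0.043). The insulin receptor gene Insr fell (-0.48 ± 0.13, limma adjusted p = 0.0073), a call that was lost without A2, A4 and A12 (limma adjusted p = 0.065).

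The binding proteins hold the ligands in the extracellular space, and Igfbp2 had the largest fall of the list. It was 4246 to 24590 in the ATM-WT libraries and 6.96 to 70.6 in the ATM-KO libraries (-8.52 ± 0.62, limma adjusted p = 6.59e-07). Igfbp3 fell from 36787 ± 4468 to 11980 ± 3299, Igfbp7 from 10818 ± 3307 to 4490 ± 674 and Igfbp5 from 1506 ± 731 to 389 ± 158. Without A2, A4 and A12 the Igfbp5 fold was -1.26 in place of -1.97. Igf1 and Igfbp2 were lowest in library A2 among ATM-WT libraries, as was the fibroblast marker sum, and their link to that sum was not tested.

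**Figure D3:**
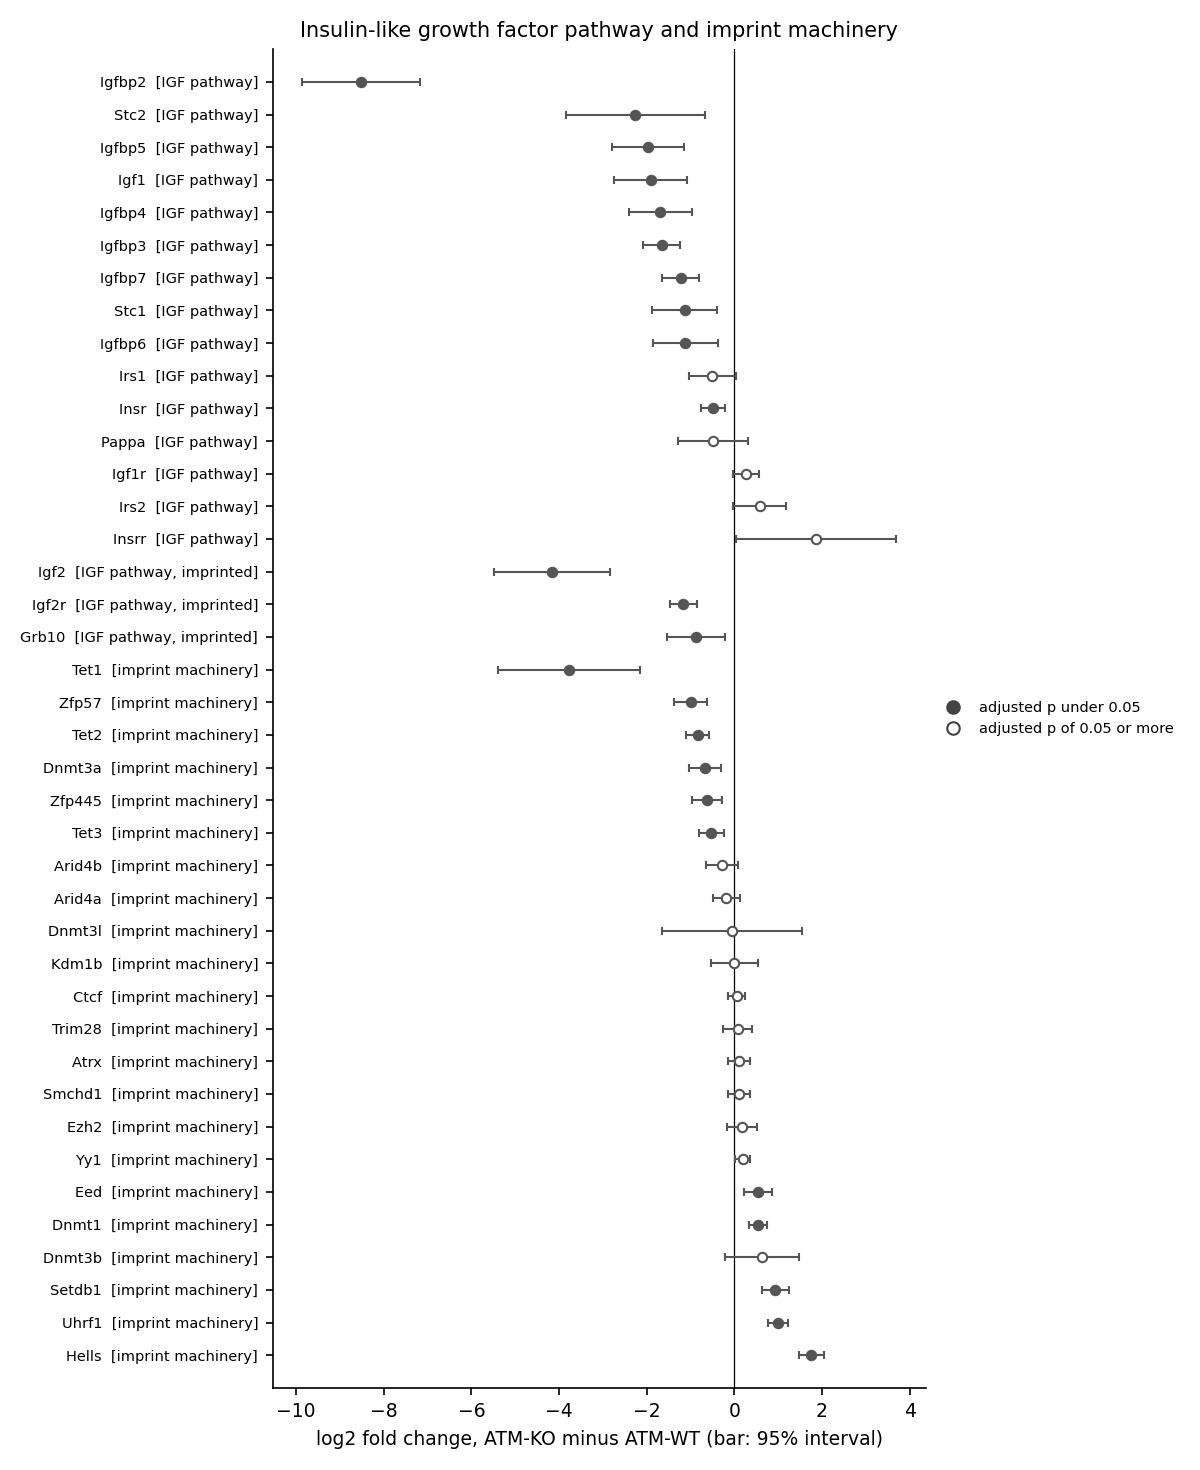
Points are log2 fold changes from ATM-WT to ATM-KO with 95% intervals; filled points have limma adjusted p under 0.05. In the insulin-like growth factor pathway, with its imprinted members Igf2, Igf2r and Grb10, the filled points all lie below 0, down to Igfbp2 at -8.52, while the imprint machinery genes lie on both sides, from Tet1 at -3.78 to Hells at 1.76.

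Cdkn1c encodes p57, an inhibitor of cyclin-dependent kinases that slows the cell cycle and restrains fetal growth. Cdkn1c (ENSMUSG00000037664.13, chromosome 7) stood at 247, 248, 347, 295 and 116 in ATM-WT and at 31.0, 4.01, 17.8, 24.3 and 31.8 in ATM-KO. The genotypes did not overlap, although A5 was lowest in ATM-WT and A12 lowest in ATM-KO. The mean fell from 251 ± 85.7 to 21.8 ± 11.5 (-3.64 ± 0.51, limma adjusted p = 8.78e-05). In the GENCODE M21 annotation 30.3% of the exon bases of Cdkn1c are shared with Gm44732 on the opposite strand. The part of this overlap in the values was not tested.

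Cdkn1c belongs to the Kcnq1 domain, in which the paternally expressed antisense RNA Kcnq1ot1 silences neighbouring genes in cis in mice. Kcnq1ot1 rose from 231 ± 46.9 to 400.2 ± 32.8 (0.81 ± 0.17, limma adjusted p = 0.0017) and its genotypes did not overlap. The neighbours listed as maternally expressed are so in at least some mouse tissues, and alleles were not measured in these tumours. Of these neighbours, Slc22a18, a transporter gene, fell from 112 ± 59.7 to 5.98 ± 3.79 (-4.06 ± 0.59). Ascl2, a transcription factor gene of placenta and gut stem cells, fell from 28.6 ± 22.5 to 0.892 ± 0.911 (-3.79 ± 0.67). The Ascl2 fold was -2.28 with a pseudocount of 5, and without A4 its mean was under the filter and it was not tested. Phlda2 (-1.59 ± 0.46), Kcnq1 (-1.62 ± 0.49) and Cd81 (-0.49 ± 0.11) fell as well, while Tssc4 (0.30 ± 0.12, limma adjusted p = 0.066) and Tspan32 (0.18 ± 0.40, limma adjusted p = 0.75) did not pass. The calls of Phlda2 and Kcnq1 were lost after quantile normalization (limma adjusted p = 0.11 and 0.088), and without A2, A4 and A12 (limma adjusted p = 0.069 and 0.13). Kcnq1 also lost its call without A2 and A4 (limma adjusted p = 0.068). Kcnq1 and Kcnq1ot1 share 121 exon bases on opposite strands, and the sources used here do not say whether strand was used in counting.

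Plagl1 encodes a zinc-finger transcription factor, also called ZAC1, that slows growth in cultured cells and regulates other imprinted genes in mice. Plagl1 (ENSMUSG00000019817.18, chromosome 10) stood at 1299, 649.8, 398, 985 and 571 in ATM-WT and at 97.5, 44.6, 25.4, 39.5 and 101 in ATM-KO. The lowest ATM-WT library, A3, was well above the highest ATM-KO library, A15. The mean fell from 781 ± 360 to 61.6 ± 35.0 (-3.71 ± 0.41, limma adjusted p = 1.59e-05), the smallest adjusted p of the 10 genes. Its relatives Plag1 (0.40 ± 0.29, limma adjusted p = 0.29) and Plagl2 (0.01 ± 0.18, limma adjusted p = 0.95) did not pass the test.

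Peg3 and Mest are paternally expressed genes active in fetal mesoderm. Peg3 (ENSMUSG00000002265.16, chromosome 7), which encodes a large zinc-finger protein, stood at 439, 79.0, 305, 464 and 337 in ATM-WT and at 105, 56.6, 332, 231 and 213 in ATM-KO. Library A2 lay below 4 of the 5 ATM-KO libraries, so the genotypes overlapped widely. The means were 325 ± 153 and 187 ± 109 (-0.81 ± 0.54, limma adjusted p = 0.24). Without A2 the fold change was -1.26 and passed (limma adjusted p = 0.030). A2 is the shallowest library and has the lowest fibroblast marker sum in ATM-WT, and the part of either in this value was not tested.

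Mest (ENSMUSG00000051855.15, chromosome 6), which encodes a hydrolase-like protein, stood at 1457, 535, 1277, 500.0 and 577 in ATM-WT. It stood at 388, 313, 564, 364 and 598 in ATM-KO. A1 and A3 were high, whereas A2, A4 and A5 lay within the range of the ATM-KO libraries. The mean went from 869 ± 460 to 445 ± 127 (-0.85 ± 0.32, limma adjusted p = 0.043), and an exact two-sided permutation test gave p = 0.071. The call was lost without A1 (-0.63), A3 (-0.67), A11 (-0.81), A12 (-0.74) or A14 (-0.79). A1 and A3 also had the highest fibroblast marker sums, 619699 and 646374 against 189651 to 292277 in the other ATM-WT libraries, and their part in the result was not tested. Copg2, whose exons overlap 32.9% of the exon bases of Mest on the opposite strand, fell from 1551 ± 271 to 661 ± 42.4 (-1.21 ± 0.12, limma adjusted p = 8.23e-06).

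Dlk1 and Meg3 lie in an imprinted domain on chromosome 12. Dlk1 encodes a membrane protein related to Notch ligands that holds back differentiation, and Meg3 is a long noncoding RNA expressed from the other allele. Dlk1 (ENSMUSG00000040856.17) was near the floor of the table, at 10.1, 9.56, 0, 69.6 and 3.72 in ATM-WT and at 0, 0, 2.96, 2.57 and 2.89 in ATM-KO. A4 was far above every other library and A3 was listed at 0, so the genotypes overlapped. Its fold change did not pass the test (-1.89 ± 1.03, limma adjusted p = 0.15), except without A3 (-2.66, limma adjusted p = 0.028), and its mean was only just above the filter, so that without A4 it was not tested.

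Meg3 (ENSMUSG00000021268.17) was well expressed, at 728, 554, 762, 495 and 1041 in ATM-WT and at 382, 259.8, 208, 124 and 364 in ATM-KO. The genotypes did not overlap, with A4 and A11 closest to each other. The mean fell from 716 ± 214 to 268 ± 108 (-1.48 ± 0.30, limma adjusted p = 0.0014). The log2 difference Meg3 minus Dlk1 was 6.39 ± 2.52 in ATM-WT and 6.80 ± 1.47 in ATM-KO (shift 0.42, exact two-sided permutation p = 0.78, adjusted p = 0.78), and the sign of this shift changed with the pseudocount. Rian and Mirg, the maternally expressed noncoding RNAs downstream of Meg3, fell from 537 ± 141 to 232 ± 100.1 (-1.26 ± 0.28, limma adjusted p = 0.0024) and from 32.6 ± 9.17 to 9.49 ± 5.27 (-1.85 ± 0.51, limma adjusted p = 0.0095). Mirg did not pass after quantile normalization (limma adjusted p = 0.079). RefSeq places 18 microRNA hairpins within Meg3, Rian and Mirg on the same strand, which were not measured here. Dio3, at the far end of the domain, did not pass the test (-0.27 ± 1.01, limma adjusted p = 0.85).

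**Figure D4:**
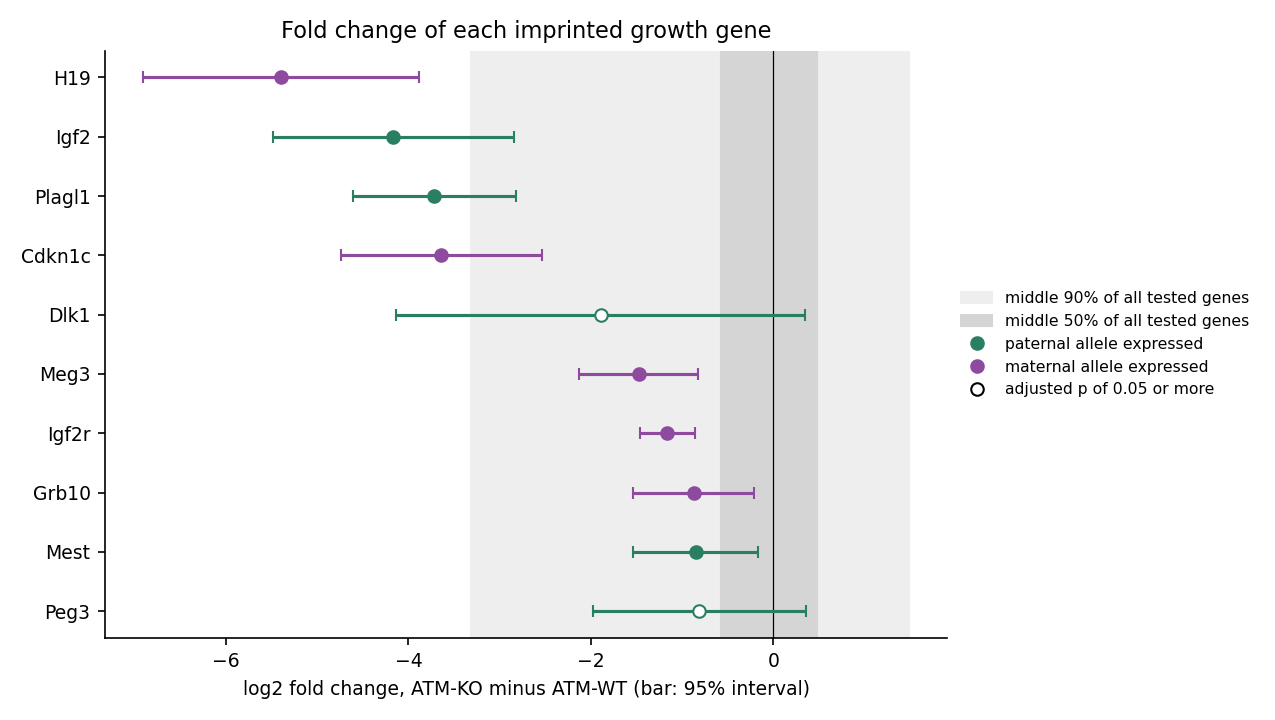
Points are log2 fold changes from ATM-WT to ATM-KO with 95% intervals, coloured by the allele expressed, and grey bands run from quantile 25% to 75% (dark) and 5% to 95% (light) of all tested genes. H19, Igf2, Plagl1 and Cdkn1c lie below the light band, whose lower edge is -3.31, and the open points Dlk1 and Peg3 did not pass the test.

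The library with the highest or lowest value differed between genes in ATM-WT, whereas in ATM-KO 1 library was lowest for 6 of the 10. In ATM-WT, A2 was highest for H19 and lowest for Igf2r, Grb10 and Peg3, and A4 was highest for Igf2, Peg3 and Dlk1 and lowest for Mest and Meg3. A2 and A4 were the libraries with the highest epithelial marker sums (228051 and 177301, against 75887 to 130926). In ATM-KO, A12 was lowest for H19, Igf2, Grb10, Cdkn1c, Peg3 and Mest and highest for none. A12 also had the lowest fibroblast marker sum, 54711 against 99316 to 135900 in the other ATM-KO libraries, the lowest endothelial and pericyte sum and the highest epithelial sum. The part of these cell types in the values was not tested. Without A12 the changes were -4.63 for H19, -3.63 for Igf2 and -3.16 for Cdkn1c, each still called. Skeletal muscle markers, whose tissue expresses several imprinted genes, summed to 256 to 2888 in ATM-WT and 94.8 to 1644 in ATM-KO, with 0 higher and 1 lower of 9 tested. The summed leukocyte markers were 3477 to 10078 and 9266 to 11992 (4 higher and 0 lower of 8), and adipocyte markers gave 1 higher and 1 lower of 5. Endothelial and pericyte markers gave 0 higher and 3 lower of 9.

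The genes whose profiles over the 10 libraries were most like each member were found by the root mean square difference of mean-centred log2 values. Symbols made of Gm and digits, or ending in Rik, were left out of this search. Values were centred over all 10 libraries, so this measure takes in the fold change between the genotypes as well as the spread within them. Likeness within a genotype alone was not measured. For H19 these were Fmo2 and Efs (0.53 for each, against 2.96 for the spread of H19 itself over the libraries). For Igf2 they were Ascl2, of the Kcnq1 domain, and Sfrp1 (0.63 for each, against 2.33). For Cdkn1c they were Ptgfr (0.36) and Lrrc17 (0.42), and for Plagl1 Hgfac (0.36) and Dok7 (0.58). For Igf2r the closest were Zc3hav1l (0.12) and Sumf1 (0.13), for Grb10 Grem1 (0.15) and Azin2 (0.17), and for Mest B4galt2 and Bicc1 (0.24 for each). For Meg3 they were Aoc3 (0.29) and the pericyte marker Rgs5 (0.39), and for Peg3 Ctla2a (0.39) and Glb1l (0.50). The closest to Dlk1 among the genes searched were Kcnk4 (1.00) and Chil1 (1.07). Among the members themselves, Igf2 and Cdkn1c (0.75) were closer to each other than Igf2 was to its neighbour H19 (0.99). Their log2 fold changes were ordered alike, at -4.16 for Igf2, -3.64 for Cdkn1c and -5.40 for H19.

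Beyond the 10 members, 47 other genes imprinted in at least some mouse tissues were listed, of which 40 were in the table and 32 tested. Of these 4 rose, 14 fell and 14 did not pass, with a median of -0.38. Among the paternally expressed ones 2 rose and 4 fell of 16, and among the maternally expressed ones 2 rose and 10 fell of 16. Of the maternally expressed ones 62.5% fell, whereas the share of paternally expressed ones that fell was near the 24.3% of all genes tested. Of each kind 12.5% rose, against 22.1%. The maternally expressed genes that fell include Kcnq1, Phlda2, Slc22a18, Ascl2 and Cd81 of the Kcnq1 domain, and Rian and Mirg of the Dlk1/Meg3 domain. Neighbours in a domain were counted here as separate genes. Whether the kinds differ was not tested. Ppp1r9a, a cytoskeletal scaffold gene, had the largest fall (from 544 ± 152 to 9.91 ± 5.41, -5.75 ± 0.37, limma adjusted p = 3.39e-07). Its neighbours Peg10, a retrotransposon-derived gene needed in the placenta (from 220 ± 185 to 3.26 ± 1.39, -5.01 ± 0.78), and Sgce, a sarcoglycan gene (-2.24 ± 0.47), fell as well. H13 (-0.77 ± 0.10) fell, while Mcts2, which lies in an intron of H13 and is expressed from the other allele in mice, rose (0.83 ± 0.18). Commd1 (0.52 ± 0.12) and Atp10a (0.65 ± 0.23) rose, and Atp10a lost its call in 9 of 20 alternatives, among them leaving out A2 (0.45, limma adjusted p = 0.051), A4, A5, A11, A12 or A14 (0.57 to 0.66). Impact (-0.76 ± 0.16) and Peg13 (-1.23 ± 0.19) fell.

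**Figure D5:**
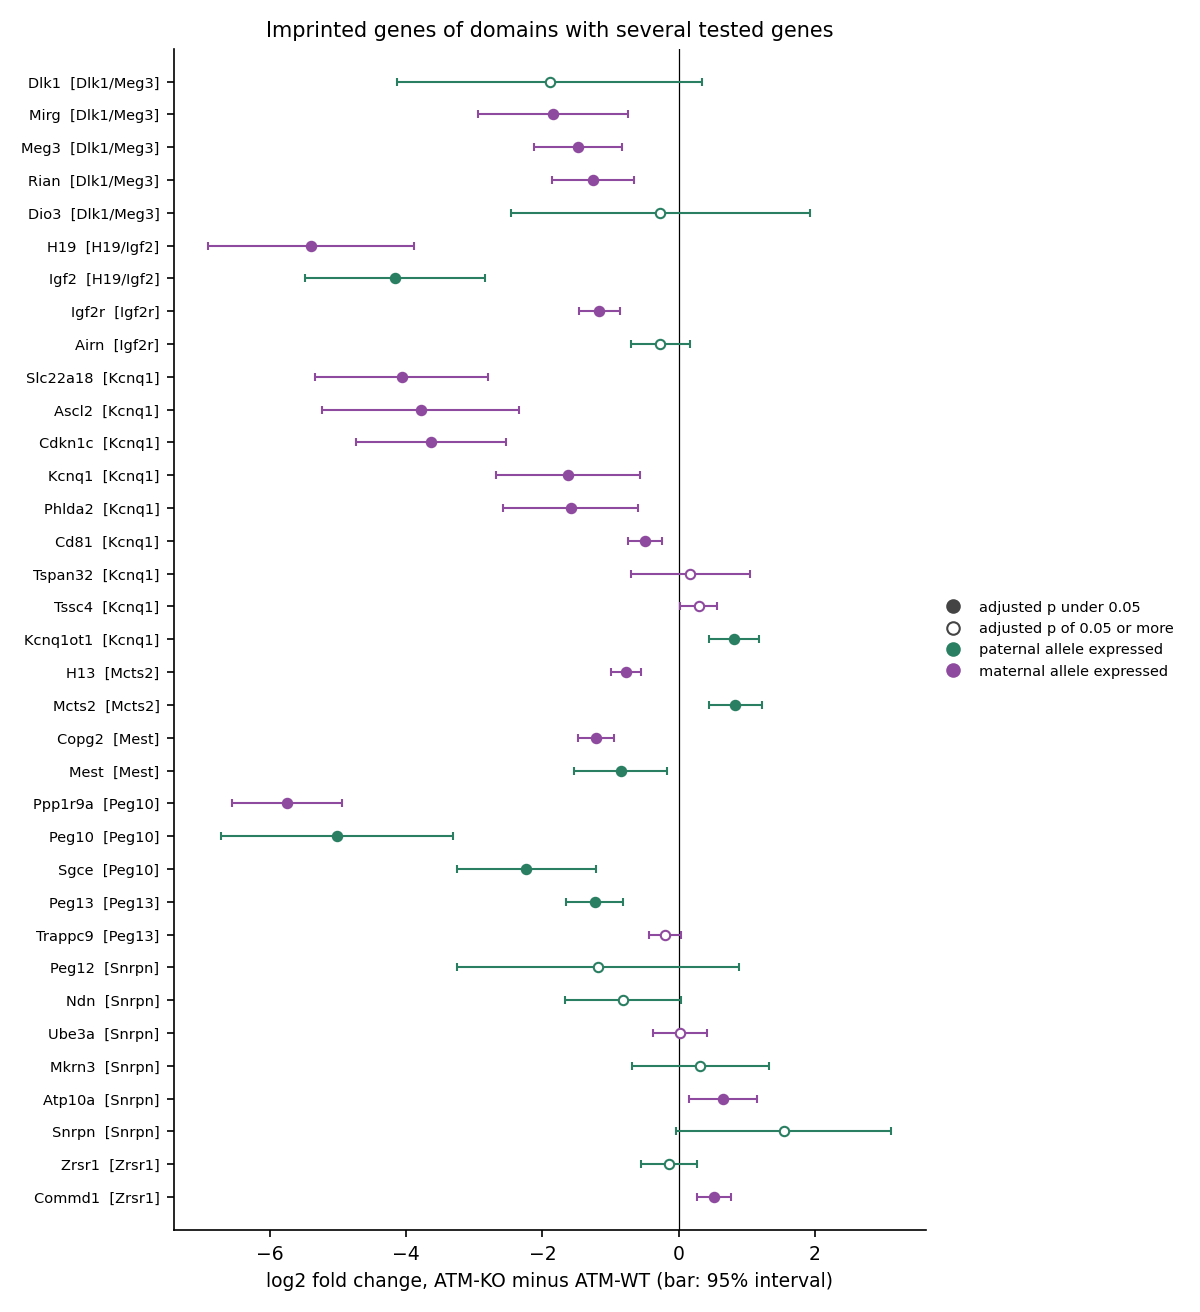
Points are log2 fold changes from ATM-WT to ATM-KO with 95% intervals for tested imprinted genes, grouped by the domain in brackets and coloured by the allele expressed; filled points have limma adjusted p under 0.05. In the Kcnq1 domain Kcnq1ot1, listed as paternally expressed, lies at 0.81 and 6 genes listed as maternally expressed at -0.49 to -4.06. Tssc4 and Tspan32 of this domain were not called. In the H19/Igf2 and Peg10 domains genes of both kinds lie below -2. The allele labels hold in at least some mouse tissues, and alleles were not measured in these tumours.

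The genes listed as reading, keeping or erasing the imprint marks went both ways. Of 25 listed, 22 were tested, of which 5 rose, 6 fell and 11 did not pass (median 0.06). These shares, 22.7% and 27.3%, are near those of all genes tested (22.1% and 24.3%). Hells, a chromatin remodeller needed for DNA methylation, rose from 1217 ± 245 to 4064 ± 320.3 (1.76 ± 0.13, limma adjusted p = 8.65e-07). Uhrf1 (1.00 ± 0.10), which brings the maintenance methyltransferase to replicating DNA, and that enzyme's gene Dnmt1 (0.54 ± 0.09) rose, as did Setdb1 (0.94 ± 0.14). The demethylase genes Tet1 (from 75.5 ± 47.1 to 5.94 ± 6.26), Tet2 (-0.83 ± 0.12) and Tet3 (-0.53 ± 0.13) fell. So did the DNA methyltransferase gene Dnmt3a (-0.67 ± 0.16, limma adjusted p = 0.0049) and the zinc-finger gene Zfp445 (-0.61 ± 0.16, limma adjusted p = 0.0065). Zfp57, a zinc-finger protein that protects methylated imprinting control regions, fell from 492 ± 117 to 240.2 ± 10.7 (-0.995 ± 0.18, limma adjusted p = 5.21e-04), and its partner gene Trim28 did not pass (0.08 ± 0.15). Ctcf, the insulator protein that binds the unmethylated maternal copy between Igf2 and H19, did not pass either (0.05 ± 0.09, 95% interval -0.14 to 0.24). DNA methylation itself was not measured.

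ZFP57 recognises the letters TGCCGC when methylated, and these letters were searched on both strands in the 250 bases before each start in the RefSeq promoter table (GRCm38.p6). The table held 15 such windows for 8 of the 10 genes. It held no window for H19 or Cdkn1c, which were therefore not searched. The letters were found in 4 windows of 3 genes (Plagl1, Mest and Meg3), or 26.7%, against 8.7% of all 32851 windows. The 2 Mest windows among them are offset by only 3 bases. The Plagl1 window is printed because that gene had the smallest p, with Mest and Meg3 for comparison. Capitals mark the match, which reads GCGGCA where it lies on the other strand. A match in these letters is not a binding site. The bases that follow the printed Meg3 window were not found in a GENCODE transcript of Meg3.
Plagl1 promoter, chr10:13090582-13090831, plus strand: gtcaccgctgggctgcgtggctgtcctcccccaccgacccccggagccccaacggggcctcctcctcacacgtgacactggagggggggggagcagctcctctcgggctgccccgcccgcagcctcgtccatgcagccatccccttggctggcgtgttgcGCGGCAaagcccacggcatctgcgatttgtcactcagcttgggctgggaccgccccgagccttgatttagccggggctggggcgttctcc
Mest promoter, chr6:30737800-30738049, plus strand: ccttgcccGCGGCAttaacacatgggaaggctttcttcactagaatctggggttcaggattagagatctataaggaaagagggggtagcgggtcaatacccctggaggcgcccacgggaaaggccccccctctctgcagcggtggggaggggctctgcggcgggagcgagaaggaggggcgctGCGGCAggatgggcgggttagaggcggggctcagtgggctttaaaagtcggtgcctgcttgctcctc
Meg3 promoter, chr12:109540746-109540995, plus strand: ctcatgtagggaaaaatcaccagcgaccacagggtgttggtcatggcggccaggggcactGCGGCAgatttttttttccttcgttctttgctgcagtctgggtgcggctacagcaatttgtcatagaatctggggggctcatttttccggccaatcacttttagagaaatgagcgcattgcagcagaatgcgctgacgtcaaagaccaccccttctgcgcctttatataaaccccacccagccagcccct

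The windows also differed in CpG content, the pairs that DNA methylation acts on. The Plagl1 window held 19 CpG, the printed Mest window 14, the printed Meg3 window 10 and the Igf2r window 27, against a median of 6 over all windows. The 4 Igf2 windows held 1, 10, 22 and 6. The Grb10 windows held 40 and 8, the Dlk1 and Peg3 windows 8 each, another Mest window 7 and another Meg3 window 0. The letters TGCCGC contain a CpG, and every member window that held them was above the median. The part of CpG content in the share of windows with these letters was not tested. The letters GGGGCCCC, a sequence bound by PLAGL1 (ZAC1), were found in 1 of the 15 windows, that of Peg3, and in 0.9% of all windows.

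A further list held the let-7 and IGF2BP axis, fetal growth regulators of which some bind Igf2 messenger RNA. Of 10 tested genes 4 rose and 2 fell (22.1% and 24.3% of all genes tested), with a median of 0.34. Igf2bp3 rose from 32.97 ± 14.1 to 159 ± 61.6 (2.26 ± 0.38), Igf2bp1 fell (-0.67 ± 0.14) and Igf2bp2 did not pass (0.28 ± 0.14, limma adjusted p = 0.13). The chromatin protein genes Hmga2 (from 370.2 ± 199 to 1969 ± 338) and Hmga1 (from 2197 ± 784 to 6020.0 ± 391) rose, and Lin28b, a blocker of let-7 maturation, fell from 120 ± 25.8 to 13.8 ± 4.81. The fetal liver gene Afp rose from 17.6 ± 10.4 to 904 ± 126 (5.79 ± 0.36, limma adjusted p = 2.22e-07).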

How the data were processed

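Per the labels' protocols, snap-frozen tumours went to a sequencing company for RNA extraction and libraries. The deposited table holds normalized counts per gene symbol, here treated as a signal that is never negative. The submitters' processing notes name the tools STAR, Salmon and DESeq2, without versions or roles. The genome build and annotation behind the table were not given in the sources used here. Column names carry a genotype and a library number absent from the sample titles, so columns were assigned to genotypes only.

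The worth of 1 read was searched in each library's low values. Only 56.7% to 67.0% of each library's low values (at most 20 reads) came within 0.05 of a multiple. Whole reads were therefore not recovered, depths are rough and no count model was run. Genes with a mean of at least 10 were compared after a log2(value + 1) transform by limma 3.58.1 under R 4.3.3 (eBayes with trend, Benjamini-Hochberg, threshold 0.05). Differences within 3 gene pairs were tested by exact permutation. On simulated data (ATM-KO against ATM-WT, 16517 genes) the procedure recovered 64 of 100 genes changed 2-fold and 96 of 100 changed 4-fold. It called 15 of 16317 unchanged genes. The changed genes were drawn only from levels well above the filter, and the noise was independent between genes. Far fewer genes were changed than were called in the real data. These rates therefore need not hold for the real data or for low genes such as Dlk1.

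The members and lists were chosen with earlier results of these data known. Named genes are the 10 members, up to 4 genes per list with the smallest p, and the 2 most alike profiles per member. Domain neighbours of members, and Igf1, Igf1r, Insr, Plag1, Plagl2, Commd1, Atp10a, Impact, Peg13, Airn, Peg10, Sgce, Mcts2, Dnmt1, Dnmt3a, Zfp57, Zfp445, Trim28, Ctcf, Tet1, Tet3 and the Igf2bp genes, were chosen after their values were seen. Exon lengths and overlaps come from GENCODE M21, promoters and microRNAs from RefSeq (GRCm38.p6). Leaving out A2 and A4 was planned from earlier results of these data, and leaving out A2, A4 and A12 was added after seeing the data. Python 3.11.15 (pandas 2.3.3, numpy 2.4.6, matplotlib 3.10.9) was used for tables and figures.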

Additional observations from a re-analysis of the deposited data

Results flagged for a closer look

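On the log2 scale, H19 in ATM-KO library A12 stood apart from the other 4 libraries of its genotype: it held 7.39 normalized counts against 83.1 in the next lowest, a gap of 0.784 of the range within the genotype. Peg3 in ATM-WT library A2 held 79.0 against 305 in the next lowest, a gap of 0.762 of the range. The limit for 5 libraries is 0.71, and chance passes it in about 1 of 20 groups.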

How the results depend on the processing

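H19, Igf2, Igf2r, Cdkn1c, Plagl1 and Meg3 kept their direction and their call in all 20 alternatives (other pseudocounts, filters, scalings, eBayes settings, sample weights and libraries left out). Grb10 lost its call in 6 of 20 and Mest in 8 of 20, among them quantile normalization (-0.55 and -0.75), which moved the median of all genes to 0.15 and the split of calls from 3649 higher and 4017 lower to 4514 higher and 3319 lower. Peg3 and Dlk1 each passed under 1 alternative. Leaving out each library gave 6 to 9 members called, and 6875 to 7849 genes called in all, against 8 and 7666. The Meg3 minus Dlk1 shift reversed with a pseudocount of 5 (-0.28), without A2 and A4 (-0.999) and without A2, A4 and A12 (-1.30), and ran from -0.48 to 1.21 with each library left out. The H19 minus Igf2 shift ran from -1.63 to -1.0003 with each library left out, and passed without A14. The Igf2r minus Igf2 shift ran from 2.49 to 3.39 with each library left out, and no longer passed without A2 and A4 (2.36) or without A2, A4 and A12 (1.85), where 1 pair alone could reach no adjusted p below 0.054 and 0.086. In both of these settings the exact permutation p of the Igf2r minus Igf2 pair was above the smallest possible, although the genotypes did not overlap. The cause of the other changes was not tested. Of 673 values for 34 other named genes, 656 kept direction and call and 0 reversed. No paired analysis was possible because the columns carry no replicate number from the sample titles. Dlk1 was under the filter, and so not tested, without A4 or with a filter of 50.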
